A study of Saccharomyces cerevisiae with 6 samples.

Results

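The genes of the large ribosomal subunit were examined in native elongating transcript sequencing (NET-seq) libraries of *S. cerevisiae*. They are the R64 genes with the symbol RPL plus a number and an optional A or B, together with the stalk genes *RPP0*, *RPP1A*, *RPP1B*, *RPP2A* and *RPP2B*. This rule gave 81 of the 6389 annotated genes that were counted. Of these, 70 belong to 35 pairs of an A and a B copy and 11 have a single copy (*RPL3*, *RPL5*, *RPL10*, *RPL25*, *RPL28*, *RPL29*, *RPL30*, *RPL32*, *RPL38*, *RPL39* and *RPP0*).

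Proteins of the large subunit surround the ribosomal RNA that forms peptide bonds, line the tunnel through which the new peptide leaves, and build the flexible stalk that calls in elongation factors. In yeast their genes are read by RNA polymerase II (Pol II), mostly under Rap1, Fhl1, Ifh1 and Sfp1, and their output is tuned to growth together with the rRNA made by RNA polymerase I (Pol I). Many descend from a genome duplication, so that nearly identical A and B copies make the same protein, and many hold an intron close to the start codon.

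The WT strain carries wild-type *RPA12* and an HA tag on the Pol I subunit Rpa135, and the rpa12Δ strain is a derivative of it in which *RPA12*, the gene of the Pol I subunit A12.2, was fully deleted. Both strains were grown in rich medium (YEPD) to early log phase, 3 libraries were made from each, and Pol I complexes were pulled down through the tag in both. The tagged subunit is not part of Pol II. Whether the read ends at ribosomal protein (RP) genes came from nascent or from finished RNA was not tested. The study describes the libraries as biological triplicates of each strain. The number of clones is not given in the sources used here.

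Outside the rDNA, the WT libraries held 1662542, 1428431 and 1165143 reads, and the rpa12Δ libraries were deeper, with 4859327, 4674055 and 4711417. A read end is the position of the RNA 3′ end, and levels are given as RPM, the read ends per 1000000 reads outside the rDNA of the same library. The deleted gene *RPA12* had 8, 9 and 3 read ends in the WT libraries, against 0, 0 and 1 after its deletion. Small nucleolar RNA genes took 57.7 to 60.4% of the reads outside the rDNA in WT and 62.2 to 66.2% in rpa12Δ, whereas protein-coding genes took 17.9 to 20.4% and 14.0 to 17.2%. A level on this scale is relative, and a fall of a gene and a rise of the rest of the library cannot be told apart. The values that follow are therefore also given relative to the read ends in protein-coding genes where the call differs.

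None of the large subunit RP genes was called higher in rpa12Δ and 9 of 81 (11.1%) were called lower, by limma over 2902 genes with Benjamini-Hochberg adjustment at 0.05. Among all genes tested, 5.38% were called higher and 25.7% lower. At an unadjusted limma p under 0.05, 0 members were higher and 16 of 81 lower, beside 239 and 971 of the 2902 genes tested. The median log2 difference, rpa12Δ minus WT, was −0.19 over the members, −0.26 over all genes tested and −0.31 over the protein-coding genes tested. Negative values were found in 71 of the 81 members, 2057 of all 2902 genes tested and 1942 of the 2538 protein-coding genes tested. Without rpa12Δ replicate 2 the count of lower members was 4, namely *RPL26B*, *RPL8A*, *RPL7A* and *RPL7B*. The mean number of read ends per library ranged over the members from 32.2 to 2137, with a median of 178.

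The direction of the group depended on the denominator. Relative to the read ends in protein-coding genes, the median of the members was 0.10 and 4 members were called higher and 4 lower, where 10.1% of 5409 genes tested were called higher and 10.5% lower. That scaling moved the median of all genes tested from −0.26 to 0.02. The 4 lower genes were *RPL26B*, *RPL8A*, *RPL22B* and *RPL7B*, which were also lower on the main scale. With each distinct read interval counted once per library, 26 members were called higher and 1, *RPL8A*, lower, beside 16.1% and 8.41% of 5270 genes. On that scale deep libraries lose more repeated intervals than shallow ones. Distinct intervals were 21.8 to 23.9% of the reads outside the rDNA in WT and 15.7 to 17.3% in rpa12Δ, and the part of this difference in the calls was not tested.

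**Figure D1:**
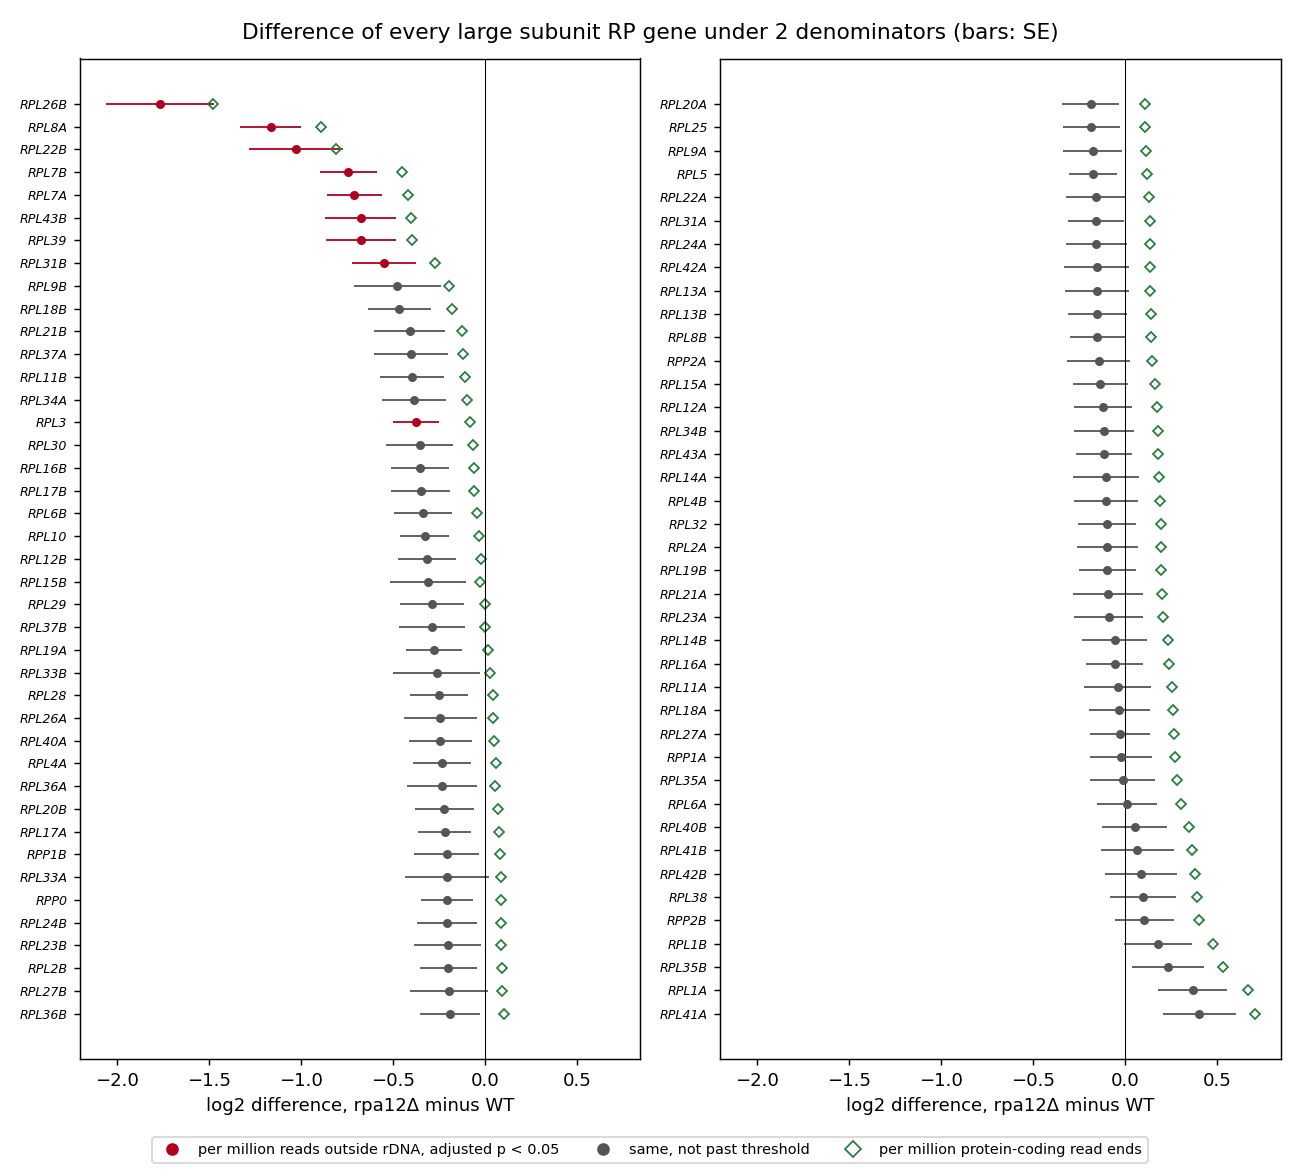
Log2 difference, rpa12Δ minus WT, of each of the 81 large subunit RP genes, ordered by its value on the RPM scale (filled points with the standard error, red where the limma adjusted p is under 0.05). Open diamonds give the same gene relative to the read ends in protein-coding genes. The second scale moves every gene to the right by a similar amount, and *RPL26B*, *RPL8A* and *RPL22B* stay farthest to the left on both.

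The same was counted for the small subunit. Of the 56 small subunit RP genes, 3 were called lower and 0 higher, with a median log2 difference of −0.19. On the scale of protein-coding genes 3 were higher and 0 lower, with a median of 0.10. Of the 34 genes of the mitochondrial large subunit, only 2 passed the filter of a mean of 10 RPM and neither was called. All 81 members passed that filter, the lowest at a mean of 12.9 RPM. These lists are a description, and no difference between them was tested.

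The members together held 0.867, 0.802 and 0.740% of the reads outside the rDNA in WT and 0.616, 0.602 and 0.617% in rpa12Δ. The strains did not overlap, with means of 0.803% ± 0.0633 and 0.612% ± 0.00851 (SD, n = 3). *RPL26B* alone supplied 16.0 to 19.2% of this signal in WT and 3.73 to 12.7% in rpa12Δ. Without it the shares were 0.661% ± 0.0484 and 0.565% ± 0.0233, a ratio of 0.854 in place of 0.762. Of the read ends in protein-coding genes, the members without *RPL26B* took 3.50% ± 0.127 in WT and 3.69% ± 0.510 in rpa12Δ, and these ranges overlapped.

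Among the genes called lower, *RPL26B* (YGR034W, chrVII:555812-556672, plus strand) had the largest fall. It encodes a copy of a protein near the peptide exit tunnel. It stood at 1515, 1542 and 1185 RPM in WT, against 783, 224 and 397 RPM in rpa12Δ. The strains did not overlap, but the rpa12Δ libraries spread widely, with replicate 1 highest. The log2 difference was −1.77 ± 0.29 (SE), with a limma adjusted p of 0.000278. It was −2.23 without rpa12Δ replicate 1 and −1.33 without rpa12Δ replicate 2.

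Nearly all of this signal lay in a narrow stretch of the gene. The 100 nt from nt 151 to 250, counted from the first base, held 96.7, 96.5 and 95.7% of the gene's total in WT and 93.9, 77.2 and 85.1% in rpa12Δ. Of all read ends in *RPL26B*, 92.9% came from reads with a mapping quality of 0, which fit more than 1 place in the genome. Outside that stretch the mean level was 51.5 ± 1.64 RPM for WT and 52.7 ± 5.69 RPM for rpa12Δ (SD, n = 3). With reads of a mapping quality above 0 alone, the levels were 58.9, 59.0 and 60.8 against 55.3, 56.2 and 63.7 per 1000000 such reads, which overlap. The log2 difference was then −0.03, with an adjusted p of 0.903. Where in the genome the reads of the stretch arose was not determined.

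*RPL8A* (YHL033C, chrVIII:35255-36025, minus strand) encodes a copy of eL8, a protein that joins the subunit early in its assembly. Its level was 78.2, 83.3 and 73.8 RPM in WT and 30.9, 36.4 and 36.3 in rpa12Δ. All rpa12Δ libraries were below all WT libraries, and the log2 difference was −1.16 ± 0.17 (SE, limma adjusted p = 5.96e-05). Its copy *RPL8B* had 144, 152 and 119 RPM in WT and 128, 128 and 116 in rpa12Δ. These ranges overlapped, and the log2 difference was −0.15 ± 0.15 (limma adjusted p = 0.459).

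Reads that could be placed at 1 copy gave a larger gap for *RPL8A*. Per 1000000 such reads it had 61.1, 78.7 and 63.9 in WT against 17.1, 20.6 and 20.8 in rpa12Δ, while *RPL8B* had 145, 157 and 124 against 132, 128 and 113. The A copy thus held 29.6, 33.3 and 34.1% of the pair's total in WT and 11.4, 13.9 and 15.6% in rpa12Δ. The log2 ratio of A to B differed by −1.60 ± 0.19 (SE, limma adjusted p = 0.00293). This was the only one of 34 large subunit pairs tested in which the ratio was called, and 3.39% of the 59 A and B pairs tested in the genome were called.

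Read ends that could not be placed may belong elsewhere, for example to *RPL8B*. From nt 201 to 300, a window chosen because all read ends of *RPL8A* there had a mapping quality of 0, the gene had 13.2, 6.30 and 11.2 RPM in WT against 9.88, 9.20 and 7.64 RPM in rpa12Δ, which overlapped. The rest of the gene stood at a mean of 68.2 ± 7.71 RPM for WT and 25.6 ± 4.06 RPM for rpa12Δ (SD, n = 3). The ratio of read ends before and after the midpoint of *RPL8A* was not called. The genes on either side of *RPL8A* were not called, with log2 differences of 0.10 for *SBP1* and −0.77 for *GUT1* (limma adjusted p of 0.752 and 0.158, in a fit without the filter).

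*RPL22B* (YFL034C-A, chrVI:64243-64932, minus strand) encodes a copy of eL22, which can bind its own pre-mRNA and hold back its splicing. It was the lowest member per kb. It had 21.1, 14.7 and 17.2 RPM in WT and 7.61, 6.42 and 10.6 in rpa12Δ, without overlap. The log2 difference was −1.03 ± 0.25 (SE, limma adjusted p = 0.00608). None of its reads had a mapping quality of 0. With reads of at least 25 nt alone the difference was −0.61 and with distinct intervals −0.54, and neither was called (limma adjusted p of 0.215 and 0.106). It was −0.88 and not called without rpa12Δ replicate 2 (limma adjusted p = 0.0504). The copy *RPL22A* had 65.7 ± 3.64 and 58.8 ± 6.72 RPM (SD, n = 3), and its log2 difference of −0.16 was not called. The A to B ratio of this pair was higher in rpa12Δ by 0.96 on the log2 scale, with an adjusted p of 0.10 that did not pass.

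*RPL7A* and *RPL7B* encode uL30, a protein that binds the rRNA, and carry the snoRNA genes *SNR39* and *SNR59* inside them. Read ends inside the snoRNA genes were left out. *RPL7A* (YGL076C, chrVII:364335-365996, minus strand) had 210.5, 190 and 247 RPM in WT and 119, 139 and 135 in rpa12Δ. *RPL7B* (YPL198W, chrXVI:173152-174702, plus strand) had 156, 165 and 130 RPM in WT and 79.6, 89.4 and 98.7 in rpa12Δ. Neither gene overlapped between the strains, and the log2 differences were −0.71 ± 0.15 and −0.74 ± 0.16 (SE, limma adjusted p of 0.00179 and 0.00192). Relative to the read ends in protein-coding genes they were −0.42 and −0.45, and *RPL7A* was not called (limma adjusted p of 0.0547 and 0.0482).

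In both genes the highest position lay 1 nt past the 3′ end of the snoRNA. It held, for *RPL7A*, 39.9% of the read ends in WT and 29.0% in rpa12Δ, and 50.1% and 36.2% of those of *RPL7B*. The snoRNAs themselves were at 7278 to 7697 RPM (*SNR39*) and 5395 to 5693 (*SNR59*) in WT, and at 4285 to 5366 and 3904 to 5418 in rpa12Δ. When read ends up to 5 nt outside the snoRNA were also left out, a setting chosen after the data were seen, the log2 differences were −0.39 and −0.29 and neither was called (limma adjusted p of 0.0593 and 0.233). The log2 differences were thus nearer 0 without these 5 nt. When only the highest position of each gene was left out, both genes were still called lower. The rest of *RPL7A* stood at 128.8 ± 7.45 RPM for WT and 92.9 ± 4.88 RPM for rpa12Δ. The rest of *RPL7B* stood at 75.2 ± 12.3 and 56.8 ± 4.48 RPM (SD, n = 3).

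The other genes called lower changed less. *RPL43B* (YJR094W-A), which encodes a zinc-binding protein, had 39.7, 41.3 and 31.8 RPM in WT and 20.6, 22.2 and 26.5 in rpa12Δ, with a log2 difference of −0.68 ± 0.19. *RPL39* (YJL189W), the single gene of a very small protein in the exit tunnel, had 36.7, 43.4 and 41.2 against 22.6, 22.5 and 30.4, with a difference of −0.67 ± 0.19. *RPL31B* (YLR406C), which encodes a protein at the rim of the tunnel exit, had 42.7, 43.4 and 49.8 against 31.9, 27.8 and 32.0, with a difference of −0.55 ± 0.17. In each of these the rpa12Δ libraries lay below all WT libraries. The limma adjusted p was 0.0141, 0.0134 and 0.0249, and none of these genes was called relative to the read ends in protein-coding genes. *RPL31B* was not called when its highest position was left out (log2 difference −0.38, limma adjusted p = 0.0991).

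*RPL3* (YOR063W, chrXV:444686-445849, plus strand) encodes uL3, which reaches toward the peptidyl transferase centre. It had 431, 397 and 383 RPM in WT and 314, 326 and 293 in rpa12Δ, and had the smallest standard error of the members. The log2 difference was −0.37 ± 0.13 (SE, limma adjusted p = 0.0328). Relative to the read ends in protein-coding genes it was −0.08, which was not called, and with reads of at least 25 nt it was −0.37 and not called (limma adjusted p = 0.0590). *RPL3* also lost its call when WT replicate 1, WT replicate 2, rpa12Δ replicate 2 or rpa12Δ replicate 3 was left out.

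**Figure D2:**
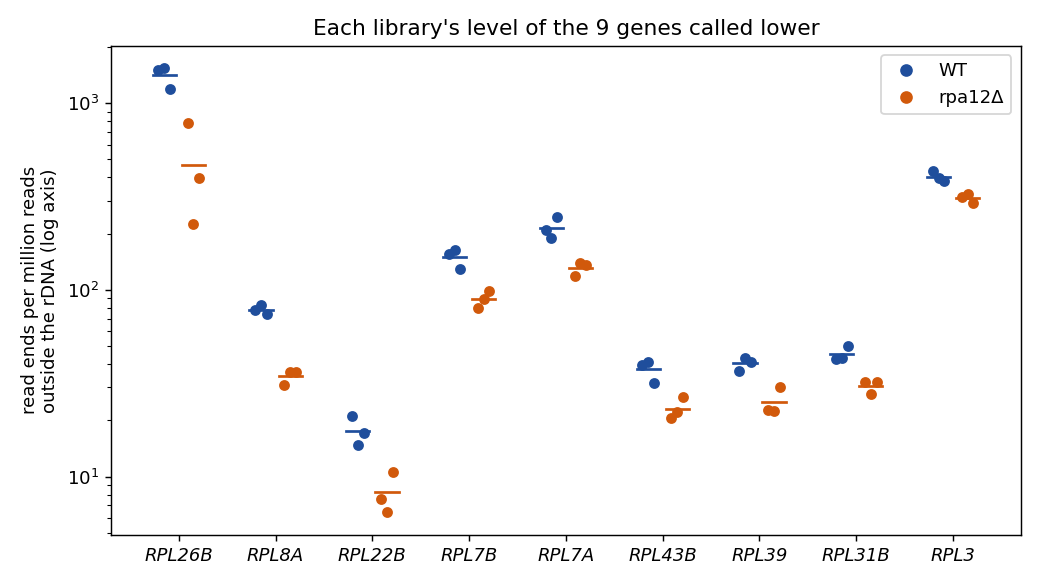
Level in RPM (log axis) in each of the 3 WT and 3 rpa12Δ libraries for the 9 large subunit RP genes called lower, with horizontal bars at the strain means. The strains are apart in every gene. The rpa12Δ points of *RPL26B* range from 224 to 783, while those of *RPL8A* lie between 30.9 and 36.4.

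Per kb of gene, *RPL26B* stood at a mean of 1093 RPM, which rests on the narrow stretch described above. It was followed by *RPL41A* at 529 and *RPL41B* at 466 RPM per kb, which encode the smallest protein of the ribosome. *RPL3* stood at 307, *RPL10* at 306 and *RPP0* at 257 RPM per kb, and the median member at 88.2. *RPL41A* had 30.7, 42.7 and 32.6 RPM in WT and 36.8, 51.1 and 53.5 in rpa12Δ, which overlapped, with the largest positive log2 difference of the group, 0.40 ± 0.20 (limma adjusted p = 0.139). *RPL41B* had 31.3, 44.8 and 30.9 against 36.4, 32.5 and 42.0, with a difference of 0.06. *RPL10*, whose protein joins the subunit last and is needed for it to become active, had 235, 222 and 223 against 173, 189 and 180, with a difference of −0.33 ± 0.13 that did not pass (limma adjusted p = 0.0699).

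The stalk genes were not called. *RPP0* encodes the base of the stalk, and had 302, 232 and 244 RPM in WT and 216, 226 and 229 in rpa12Δ. Its log2 difference was −0.21 ± 0.14 (limma adjusted p = 0.281). The proteins P1 and P2 hang from this base and bind elongation factors. *RPP1A* and *RPP1B* had differences of −0.02 and −0.21, and *RPP2A* and *RPP2B* of −0.15 and 0.10, with overlapping libraries and limma adjusted p from 0.383 to 0.935. *RPL30*, a single-copy gene whose protein holds back the splicing of its own pre-mRNA, had 63.2, 69.3 and 47.2 RPM in WT against 42.6, 47.1 and 48.6, with a difference of −0.35 ± 0.18 (limma adjusted p = 0.152).

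The 4 genes called higher relative to the read ends in protein-coding genes were *RPL41A* (log2 difference 0.70, limma adjusted p = 0.0166), *RPL1A* (0.66, 0.00535), *RPL35B* (0.53, 0.0499) and *RPL1B* (0.47, 0.0427). *RPL1A* and *RPL1B* encode uL1, which forms the stalk at the exit side for tRNA, and *RPL35B* a copy of uL29 at the tunnel exit. On the main scale their differences were 0.40, 0.37, 0.23 and 0.18, and none was called. In these genes 57.2 to 89.2% of the read ends came from reads of mapping quality 0. With placed reads alone the difference of *RPL1B* on the main scale turned to −0.43 and was not called (limma adjusted p = 0.227). *RPL1A* and *RPL35B* then fell under the filter and were not tested. The summed *RPL1* and *RPL41* pairs were called higher relative to the read ends in protein-coding genes as well (0.56 and 0.55, limma adjusted p of 0.00728 and 0.0350), in a fit chosen after the data were seen.

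The copies were also summed, since a read that fits both copies and nowhere else adds to the sum wherever it was placed. Which places the reads of mapping quality 0 fit was not determined. The share of read ends with a mapping quality of 0 was at most 0.465% in single-copy members and ranged from 0 to 92.9% in A and B copies, with a median of 22.1%. When the copies were summed, 3 of 35 pairs were called lower and none higher, beside 25.9% and 5.45% of the 2843 rows of that table. They were *RPL26* (log2 difference −1.69, limma adjusted p = 0.000216), *RPL7* (−0.73, 0.000453) and *RPL8* (−0.45, 0.0222). For *RPL26*, the sum carries the stretch in *RPL26B*, and for *RPL7* it carries the read ends just past the 3′ ends of *SNR39* and *SNR59*. The *RPL7* sum was not fitted without the 5 nt beside the snoRNAs. Relative to the read ends in protein-coding genes, the *RPL8* sum was −0.15 and not called (limma adjusted p = 0.504). *RPL26* and *RPL7* stayed lower on that scale (−1.395 and −0.44, limma adjusted p of 2.85e-05 and 0.0314). That fit was chosen after the data were seen.

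The A copy held between 21.7% (*RPL36*) and 80.8% (*RPL18*) of the placed read ends of a tested pair in WT. For *RPL15*, which had too few placed read ends in the B copy to be tested, it held 96.5%. The *RPL1* pair had the next largest difference in the log2 ratio after *RPL8*, at 1.27 ± 0.40 (SE, limma adjusted p = 0.10). That pair had only 155 and 185 placed read ends in all libraries together. When WT replicate 1 was left out, *RPL35* was called as well (limma adjusted p = 0.0455), and so 2 pairs.

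**Figure D3:**
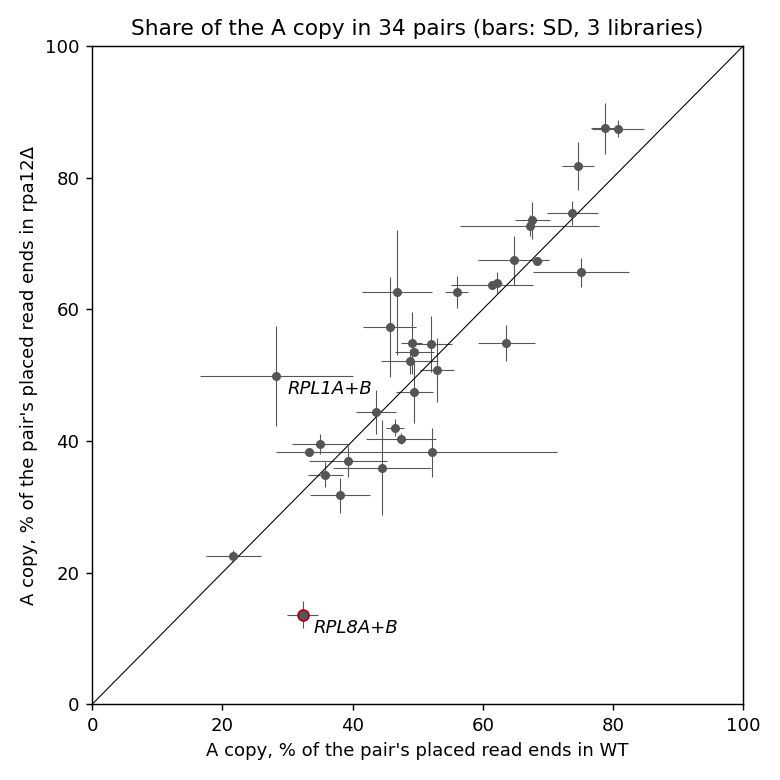
Share of the A copy in the placed read ends (mapping quality above 0) of each of 34 large subunit RP pairs, WT on the x axis and rpa12Δ on the y axis, both in percent. Points are means and bars the SD over 3 libraries, and the line marks equal shares. *RPL8* (red) lies farthest below the line, with 32.3% in WT and 13.6% in rpa12Δ.

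Read ends were not spread evenly along the genes. Averaged over the 81 members in 20 bins of equal relative length, the last bin held 8.68% of a gene's total in WT and 8.62% in rpa12Δ, and the third bin 2.41% and 2.42%. The first bin held 3.66 to 4.28% in the WT libraries and 4.69 to 5.18% in the rpa12Δ libraries, which did not overlap. The other bins differed less. In bins 4, 5 and 10 the libraries did not overlap either, with lower values in rpa12Δ. Bin 5 held 3.75 to 3.86% in the WT libraries and 3.27 to 3.59% in the rpa12Δ libraries. No bin was tested. In 31 members the span from start to stop codon is not a multiple of 3, so that it must hold a stretch that is not coding. In these a median of 14.1% of the read ends lay before the midpoint of the gene in WT and 15.3% in rpa12Δ, against 43.4% and 44.5% in the other 50. Those 50 were mixed, from 4.69% (*RPL33A*) to 96.7% (*RPL26B*) in WT, and their span can also hold a stretch that is not coding. Introns were not mapped here and were part of the span.

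**Figure D4:**
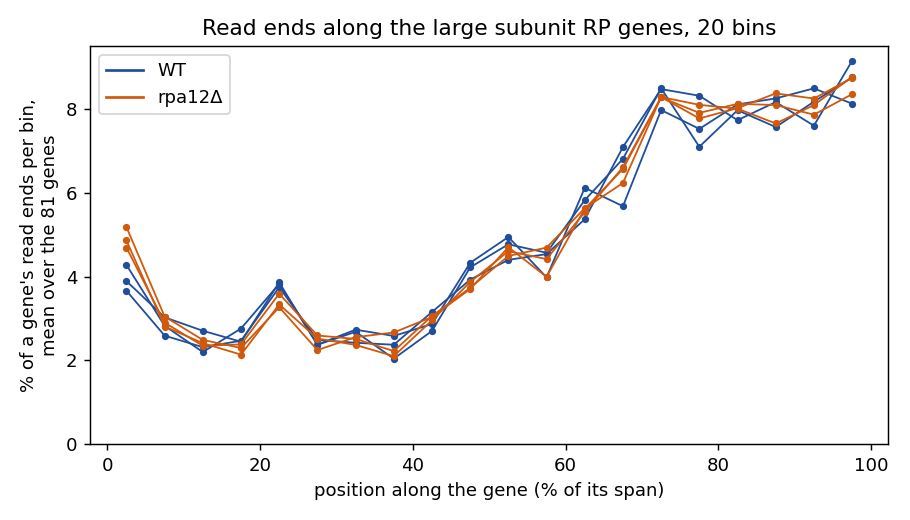
Mean percent of a gene's read ends in each of 20 bins along the gene, over the 81 large subunit RP genes, 1 line per library. The curves of all 6 libraries rise from about the middle of the gene and then stay high, with ups and downs, over its last bins. They part most in the first bin, at 3.66 to 4.28% in WT and 4.69 to 5.18% in rpa12Δ.

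The ratio of read ends before and after the midpoint was tested in 73 members with a mean of at least 100 read ends, and none was called, beside 0.348% of the 862 genes tested. In *RPL26B* 96.7% of the read ends lay before the midpoint in WT and 86.8% in rpa12Δ (limma adjusted p = 0.360), and this gene was called when rpa12Δ replicate 1 was left out (limma adjusted p = 0.0233). In *RPL8A* the shares were 49.3% and 62.6% (limma adjusted p = 0.429).

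Single positions held much of the signal of some members. The highest position held a median of 3.37% of a gene's read ends, more than 10% in 19 members and more than 20% in 7. The largest share was at *RPL33A*, which encodes eL33, with 68.8, 41.5 and 58.1% in WT and 57.9 to 65.7% in rpa12Δ. Its copy *RPL33B* followed with 60.3, 39.7 and 45.7% against 58.9, 58.3 and 40.2%. In both copies the position lay 215 nt before the last base, and only 0.938% and 3.46% of their read ends had a mapping quality of 0. The strains overlapped in both genes, and the log2 differences of the genes were −0.21 and −0.26 (limma adjusted p of 0.509 and 0.412). Without that position *RPL33A* had 70.4, 58.1 and 55.8 RPM in WT against 43.4, 48.1 and 48.0 in rpa12Δ. These did not overlap, and the gene was then called lower, with a log2 difference of −0.39 (limma adjusted p = 0.0449). The next were *RPL7B* and *RPL7A*, at the border of their snoRNAs.

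In 10 of the 35 pairs the highest position of the A and the B copy lay at the same distance before the last base, and in 2 more at the same distance from the first base. The pairs *RPL16* and *RPL31* shared it at 272 and 118 nt before the last base, with mapping quality 0 in at most 3.67% of the read ends of each copy. In *RPL31B* that position took 31.5% ± 8.59 of the gene's total in WT and 22.9% ± 5.05 in rpa12Δ, and in *RPL31A* 14.2% ± 3.00 and 12.1% ± 2.96 (SD, n = 3). In other pairs, such as *RPL1*, *RPL18* and *RPL35*, reads of mapping quality 0 made up 24.8 to 89.2% of the read ends. A shared position there may come from reads of the other copy, which was not tested.

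**Figure D5:**
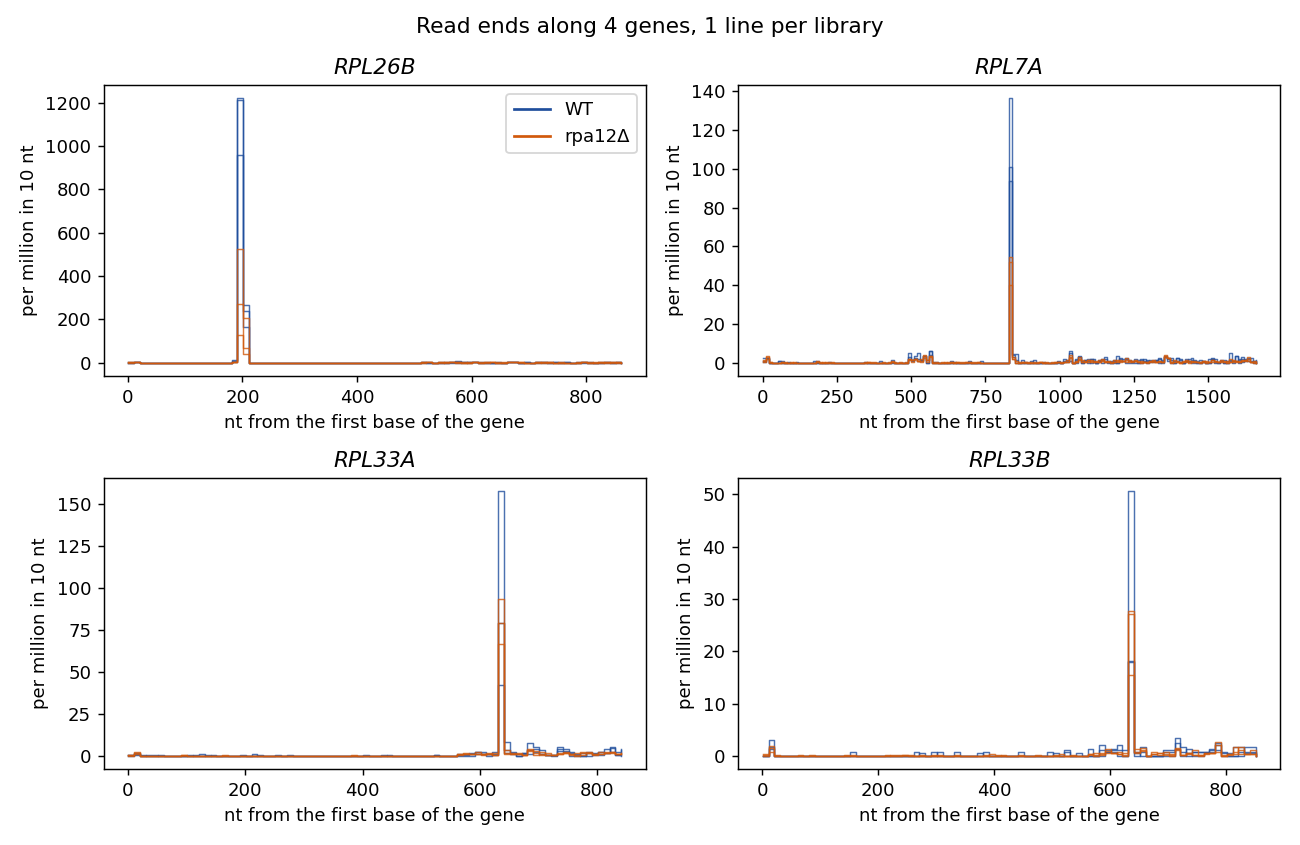
Read ends in RPM in consecutive 10 nt along *RPL26B*, *RPL7A*, *RPL33A* and *RPL33B*, counted from the first base, 1 line per library. A single peak dominates each gene in both strains. The *RPL26B* peak is lower in every rpa12Δ library than in every WT library, whereas the *RPL33A* and *RPL33B* peaks overlap between strains.

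Genes that act on the RP genes or their proteins were counted by lists written with earlier results known. Of 15 regulators of RP gene transcription, 14 were tested, and 3 (21.4%) were called lower and 0 higher, beside 25.7% of all genes tested called lower. They were *DOT6*, a repressor of ribosome biogenesis genes (log2 difference −1.15, limma adjusted p = 0.00164), *SCH9*, a kinase that relays TORC1 signals (−0.61, 0.0220), and *IFH1*, the co-activator of Fhl1 (−0.67, 0.0255). *RAP1* and *SFP1* had differences of 0.19 and −0.12 and were not called. Relative to the read ends in protein-coding genes, *DOT6* was the only regulator called lower (−0.91, limma adjusted p = 0.00352), and *TBF1*, which binds upstream of snoRNA and some RP genes, was called higher (0.70, 0.0432). Of 11 genes listed as carriers and assembly factors of the large subunit, 8 were tested and 2 were called lower, a share close to that background. They were *MAP1*, a methionine aminopeptidase found at the tunnel exit (−0.62, 0.0189), and *NAP1*, a histone chaperone (−0.58, 0.0348). The other 6 genes tested had positive differences, none of them called, and the median of the 8 was 0.29 on the log2 scale. Relative to the read ends in protein-coding genes, 5 of the 11 were called higher and 0 lower, beside 10.1% of the 5409 genes tested on that scale called higher. The median of the 11 was 0.60, beside a median of 0.10 for the large subunit RP genes on that scale.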

How the data were processed

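The authors prepared 6 NET-seq libraries, 3 from WT and 3 from rpa12Δ yeast. The submitters' processing notes name bcl2fastq 2.18.0.012, Trim Galore 0.4.1, BWA 0.6 and SAMtools 1.3.1, and the genome build is not given in the sources used here. The deposited files list each aligned read with its interval, its strand and a score, the mapping quality, from 0 to 60. The intervals fit the chromosome lengths of R64.

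Here the 5′ end of each read was counted on the strand opposite to the gene, which gives the RNA 3′ end, without ends in nested SNR genes and per 1000000 reads outside the rDNA (RPM). Genes ran from start to stop codon as in the R64 table of RefSeq. One read equals 0.206 to 0.858 RPM, and a count of 3 equals 0.617 to 2.57. A mean of 10 RPM or more was required on the main scale. Under other read sets or the protein-coding denominator the filter was 10 per 1000000 of that setting's own total, so the genes tested differed. Genes were fitted by limma 3.58.1 (R 4.3.3) on log2(RPM + 1), a scale that understates changes of low genes. The fit used a variance trend and Benjamini-Hochberg adjustment. In simulated data 200 genes were changed, and every gene was given the same spread between replicates (dispersion 0.03). Of the changes, 83 of 106 of size 1 and 94 of 94 of size 2 on the log2 scale were recovered among 2902. In the same data 11 unchanged genes were called. These rates hold for that spread, which was set and not estimated from the libraries. For the midpoint ratio 37 of 81 and 88 of 91 were recovered among 862, with 3 unchanged genes called. With 3 libraries against 3 an exact permutation test cannot give a two-sided p below 0.1, and none is given. Ratios of counts used a pseudocount of 1 read end.

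The members and lists were chosen with earlier results of these data known. Named were the 8 largest falls and rises among called members, the 6 highest per kb, the stalk genes, the 3 single-copy members with the largest difference, any under the filter, those called in other tests, and the 4 with the highest position share. *RPL1A*, *RPL1B*, *RPL35B*, *RPL16*, *RPL31A* and the copies of named genes were added after their values were seen. Introns could not be left out of the midpoint ratio, as no exon map was used. Alternatives changed the reads used, denominator, pseudocount, filter, test and replicates. Counting was done in Python 3.11.15 with numpy 2.4.6 and pandas 2.3.3, and figures with matplotlib 3.10.9.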

Additional observations from a re-analysis of the deposited data

How the results depend on the processing

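With distinct intervals counted once, 26 members were higher and 1 lower with a median of 0.27, 15 summed pairs and 1 midpoint ratio were called, and the rpa12Δ to WT ratio of the members' summed share was 1.20 in place of 0.762. *RPL3* then stood at 0.060 and *RPP1A* at 0.47. With protein-coding read ends as denominator, 4 members were higher and 4 lower, with a median of 0.10 and a share ratio of 0.939. Median-of-ratios factors gave 4 higher, 5 lower and a median of 0.076, beside 480 higher and 510 lower of 2902 genes tested. Over protein-coding genes alone, a setting added after the data were seen, they gave 5 higher, 3 lower and 0.15. Leaving out the highest position of each gene gave 14 lower. Counts over all genes are not given here for the 15 summed pairs, the factors over protein-coding genes, the highest position or left-out libraries. A mapping quality of at least 20 moved the median to −0.29, one above 0 the share ratio to 0.811, and leaving out *RPL26B* (added later) to 0.854. For other settings the cause of a moved value was not tested. When single libraries were left out, the higher count ranged from 0 to 1, the lower count from 4 to 10, called midpoint ratios from 0 to 1 and called A to B ratios from 1 to 2. Under 81 other combinations of a group result and an alternative the value stayed within 1.5 times the count or 1 SD between replicates.

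Libraries of both strains share replicate numbers. Their deviations correlated at 0.17, 0.01 and −0.02 for the same number, so that the numbers were not taken as pairs. With the replicate block 10 members were lower (*RPL18B* was added), 0 were higher, the median was −0.19, and 3 summed pairs, 0 midpoint ratios and 1 A to B ratio were called. Counts on coding exons alone, intron to exon ratios, splice site ends and motifs were not run, as no genome or exon map was used here.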

Other observations

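Read ends on the strand opposite to the members were few. They made up a median of 0.0935% and at most 1.99% of the read ends on both strands of a member. Past the last base of the coding span, the first 50 nt held read ends equal to 6.14 to 6.75% of those inside the members in WT and 7.53 to 7.59% in rpa12Δ. From 51 to 100 nt the values were 6.00 to 7.71% and 7.69 to 8.60%, and from 151 to 200 nt 0.833 to 1.46% and 1.39 to 1.53%. In the 50 nt before the first base they were 0.701 to 0.939% in WT and 1.24 to 1.41% in rpa12Δ, without overlap. From 101 to 150 nt before the first base the order was the opposite, with 1.28 to 1.58% in WT and 0.210 to 0.952% in rpa12Δ, also without overlap. These percentages divide by a sum that *RPL26B* raises more in WT than in rpa12Δ, and they were not tested. Each window pools the read ends of all members, so that a single gene can carry it. How many genes supplied each window was not examined.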
